A study of Sus scrofa with 2 samples.

Results

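The gap junction connexins of the pig cochlear lateral wall were examined as 9 named genes, GJA1, GJA4, GJA5, GJB1, GJB2, GJB5, GJB6, GJC1 and GJC3. Rows were matched by the gene symbol of the deposited table, or by the Ensembl pig name where that symbol was blank, and 7 of the 9 genes were found among 27622 features. No row was matched to GJB2 or GJB6, and they were not analysed here. The RNA came from the stria vascularis (SV) with the lateral wall of the cochlea, as 1 library from the MITF R/r genotype and 1 from MITF r/r, called R/r and r/r tissue here. The r allele is the mutant allele of an albino, deaf line of Rongchang pigs. The R/r animal therefore also carries 1 mutant copy and is not a wild type, and the number of pigs behind each library is not given in the sources used here. Both samples are labelled postnatal day 1, whereas the study's text places this RNA before birth. Expression is given as RPKM, the mapped reads of a gene divided by its exon length and by the depth of its library, so that levels can be compared between genes as well as between libraries.

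Connexins are membrane proteins whose subunits assemble into hemichannels, and hemichannels of adjoining cells dock to form gap junctions through which ions and small metabolites pass. In the cochlear lateral wall, fibrocytes, basal cells and intermediate cells of the SV are coupled in this way, and the network carries potassium toward the endolymph. Other connexins belong to other cells of the tissue, such as the vessel wall, bone and myelinating glia.

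The reads behind the RPKM values were worked out from their steps, with mapped totals of 15829244 (R/r) and 14258672 (r/r). For each gene the smallest pair of whole numbers was taken, of which the true reads can be a common multiple. All intervals are exact 95% intervals on these reads, which leave out every error but that of counting. The reads were paired. Whether both mates of a pair were counted is not given, and if they were, the intervals are too narrow. As each genotype had 1 library, there was no replicate check and no test, and each difference compares the libraries rather than the genotypes. MITF, the mutated gene, was listed as 3 features that were all lower in r/r tissue, with log2 ratios between -0.51 and -0.45, but RPKM over a whole gene does not single out its M transcript. Among 7 melanocyte and intermediate cell markers compared, 6 were at least 2-fold lower in r/r tissue, against 2.20% of all features compared. TRPM1 was lowest at a log2 ratio of -10.64, with 1 read left. The exception was KIT at 0.02. The most abundant of them in R/r tissue, DCT, had 171 RPKM there and 1.19 RPKM in r/r tissue, where KIT had the highest level at 44.2 RPKM.

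In both tissues, GJA1 was by far the most abundant of the 7 members with a row. GJB2 and GJB6 could not be ranked. Every member with an RPKM value of at least 1 was lower in r/r tissue. Of the 7 members with a row, 4 passed that minimum, namely GJA1, GJA4, GJA5 and GJC1. GJC3 and GJB1 stood on a handful of reads, and GJB5 was listed at 0 in both tissues. The sum of the 7 members was 42.8 RPKM in R/r tissue and 29.5 RPKM in r/r tissue. Left without GJA1, the sum was 14.3 and 9.45 RPKM, so the lower total did not rest on GJA1 alone.

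GJA1 (ENSSSCG00000004241), the 43 kDa connexin that couples fibroblasts, heart muscle and bone cells, had 28.5 RPKM in R/r tissue (95% interval 26.4 to 30.7) and 20.1 RPKM in r/r tissue (18.2 to 22.0). The intervals do not overlap. The log2 ratio, r/r over R/r, was -0.51 (-0.68 to -0.33), from 695 and 441 reads. In R/r tissue, 82.0% of the features above 0 had a lower level than GJA1, and 75.0% did in r/r tissue.

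GJA5 (ENSSSCG00000006696), the 40 kDa connexin of arterial endothelium and of the atrial conduction system, had 4.23 RPKM in R/r tissue (3.68 to 4.83) and 2.09 RPKM in r/r tissue (1.69 to 2.55). It was 2.02-fold lower in r/r tissue, with an interval of 1.59 to 2.60 from 218 and 97 reads. GJA5 was thus the 1 member of the 4 compared that was past 2-fold, by a small margin, and its interval spans that threshold. Over all 16331 features above 0 in both tissues with at least 1 RPKM in one of them, 2.20% were at least 2-fold lower in r/r tissue. Scaling the libraries to the median ratio of all features brought GJA5 just under 2-fold.

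GJA4 (ENSSSCG00000021509), the 37 kDa connexin that endothelial cells express alongside GJA5, had 6.58 RPKM in R/r tissue (4.80 to 8.81) and 5.03 RPKM in r/r tissue (3.42 to 7.14). These intervals overlap widely. The log2 ratio was -0.39 (-1.10 to 0.31) from 45 and 31 reads, so a difference was not detectable at this depth. Taken as 3 times the smallest whole numbers, 135 and 93 reads, the interval would still reach 0 (-0.78 to 0.00).

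GJC1 (ENSSSCG00000021306), a connexin of smooth muscle and of the cardiac conduction system, had 3.04 RPKM in R/r tissue (2.34 to 3.88) and 2.26 RPKM in r/r tissue (1.64 to 3.05). The intervals overlap here too. Its log2 ratio was -0.42 (-1.02 to 0.16) from 64 and 43 reads, and with 128 and 86 reads, a multiple of 2, it would have an interval of -0.83 to -0.02. The deposited table gives this feature the symbol GJC1, as does the Ensembl name table, but its description text names GJD3, for which the table holds a feature of its own.

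**Figure D1:**
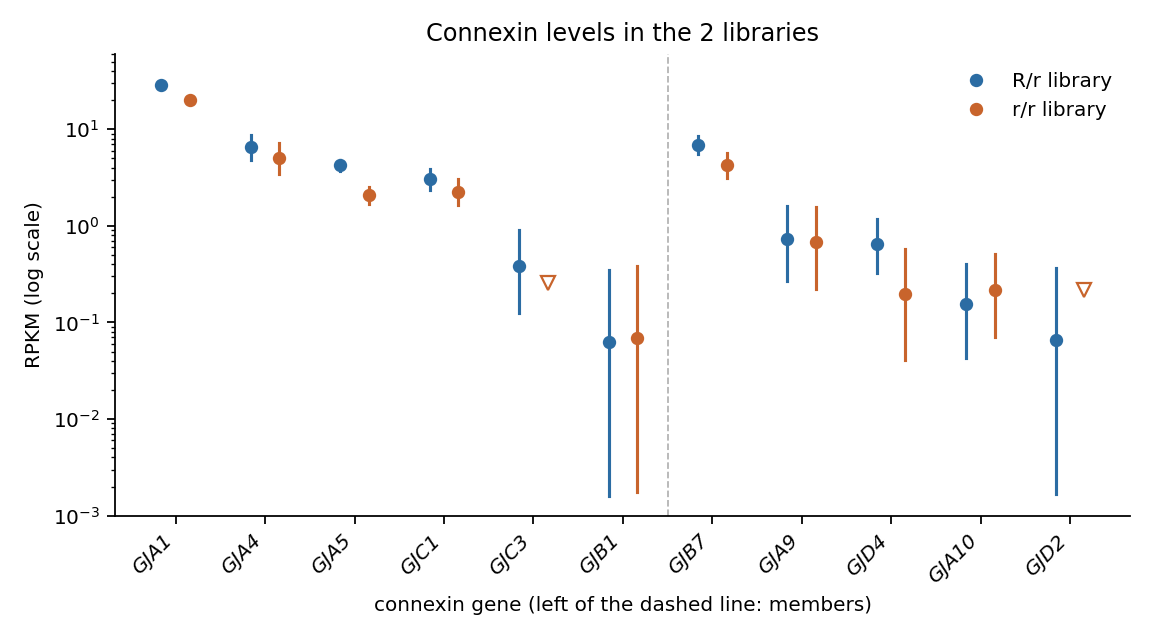
RPKM (log scale) of the connexins reported here that were above 0 in at least one library, with R/r in blue and r/r in orange; vertical lines are exact 95% counting intervals and open triangles mark the level that 3 reads would give where a gene was listed at 0. GJA1 stands at 28.5 and 20.1 RPKM, well above every other connexin shown, and the genes with a handful of reads have intervals that span more than the difference between the libraries.

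Expression of GJC3, GJB1 and GJB5 was at the limit of detection. GJC3 (ENSSSCG00000007636), a connexin of myelinating glia, had 0.386 RPKM in R/r tissue from 5 reads and was at 0 in r/r tissue. A count of 0 allows up to 3 reads, or 0.257 RPKM. The counting intervals, 0.125 to 0.900 RPKM in R/r tissue and 0 to 0.316 RPKM in r/r tissue, overlap. A difference in GJC3 was thus not detectable at this depth. GJB1 (ENSSSCG00000012394), the 32 kDa connexin of Schwann cells and hepatocytes, had 1 read in each tissue, or 0.0623 and 0.0692 RPKM, and no fold is given. GJB5 (ENSSSCG00000003585), a 31.1 kDa connexin of stratified epithelium, was listed at 0 in both tissues. On 1 kb of exon a count of 0 allows up to 0.190 RPKM in R/r tissue and 0.210 RPKM in r/r tissue.

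The order of the members by level was GJA1, GJA4, GJA5, GJC1, GJC3 and GJB1 in R/r tissue. Each of the first 4 exceeded the next by more than counting error, by 4.33-fold (3.20 to 5.99) for GJA1 over GJA4, 1.56-fold (1.10 to 2.15) for GJA4 over GJA5, 1.39-fold (1.05 to 1.87) for GJA5 over GJC1 and 7.87-fold (3.20 to 25.1) for GJC1 over GJC3. GJC3 and GJB1 were not distinguishable at this depth. In r/r tissue, GJC1 took the position above GJA5, but the ratio of 1.08 (0.74 to 1.57) includes 1, so these neighbours were not distinguishable there. GJA1 remained 3.99-fold (2.77 to 5.94) above GJA4, and GJA4 was 2.22-fold (1.35 to 3.61) above GJC1.

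Shares of the connexin RNA changed little for GJA1. It made up 66.6% of the summed RPKM of the 7 members in R/r tissue and 68.0% in r/r tissue. GJA4 made up 15.4% and 17.0%, GJC1 7.09% and 7.67%, and GJA5 9.88% and 7.07%. Counted as reads without scaling to length, GJA5 had 21.2% of the member reads in R/r tissue (Clopper-Pearson interval 18.7 to 23.8) and 15.8% in r/r tissue (13.0 to 19.0). The read shares and their intervals rest on the smallest whole numbers of each gene, and a larger multiple for one gene would change them. All these shares leave out GJB2 and GJB6.

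Compared with each other, the 4 members differed in their log2 ratio beyond counting error in 1 of 6 pairs, that of GJA1 and GJA5. The ratio of GJA1 was higher than that of GJA5 by 0.51 on the log2 scale (0.12 to 0.91), and GJA1 went from 6.74 times the level of GJA5 in R/r tissue to 9.61 times in r/r tissue. The endothelial pair, GJA4 and GJA5, stood at 1.56 and 2.41, a log2 difference of 0.63 (-0.17 to 1.42) that was not detectable at this depth.

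The median log2 ratio of the 4 members was -0.46, with a range of -1.02 to -0.39, against -0.02 over all 16331 features. All 4 were lower in r/r tissue, where 53.3% of all features were. The interval lay below 0 for 2 of the 4, GJA1 and GJA5, against 14.5% of all features. It lay wholly beyond 2-fold for 0 of the 4, against 0.355% of all features on the lower side and 0.294% on the higher side. Among features with at least as many reads as the member, 2.01% had a lower ratio than GJA1, 0.393% than GJA5, 5.84% than GJC1 and 7.66% than GJA4.

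**Figure D2:**
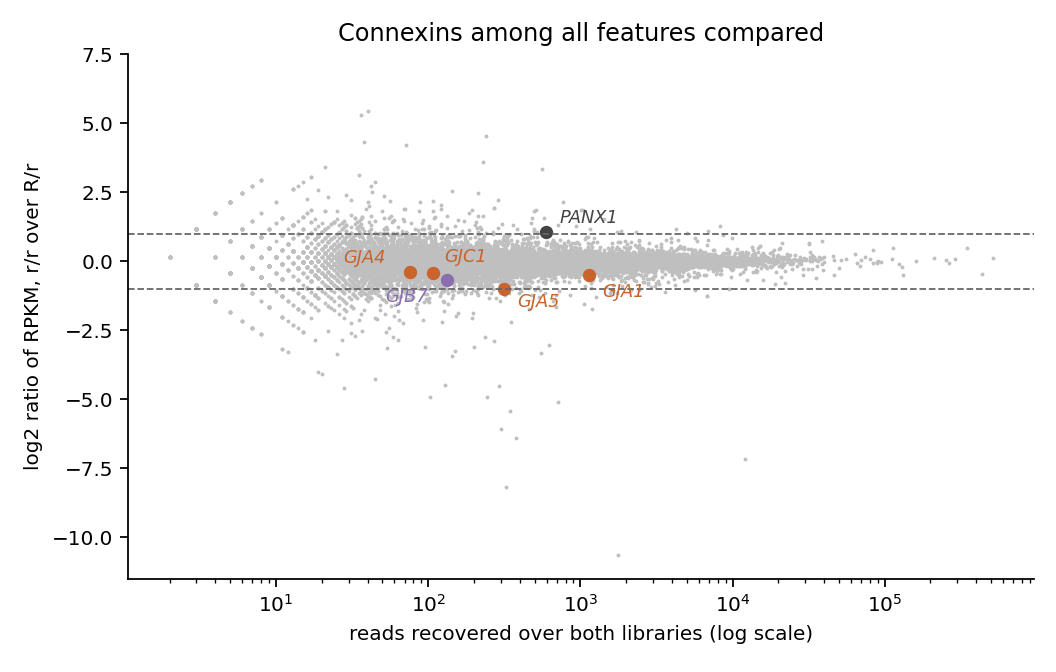
Each grey point is 1 of the 16331 features compared, placed by its reads over both libraries (log scale) and its log2 ratio of RPKM, r/r over R/r; dashed lines mark 2-fold. The member connexins (orange) and GJB7 (purple) lie below 0, with GJA5 on the lower 2-fold line at -1.02, and PANX1 (grey) lies at 1.06.

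A further 8 connexins of the family were looked up, and 6 had a row. GJB7 (ENSSSCG00000004299), a 25 kDa connexin, was the 1 gene of these with at least 1 RPKM. It had 6.89 RPKM in R/r tissue (5.51 to 8.50) and 4.27 RPKM in r/r tissue (3.15 to 5.66), which placed it beside GJA4, from which it was not distinguishable in either tissue. Its log2 ratio was -0.69 (-1.23 to -0.16) from 86 and 48 reads. GJD4 had 11 reads in R/r tissue and 3 in r/r tissue, a 3.30-fold lower level with an interval of 0.87 to 18.4. GJA9, GJA10 and GJD2 had at most 6 reads in either tissue, and GJD3 was listed at 0 in both. GJA3 and GJE1 had no matched row and were not analysed here.

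Pannexins, relatives of the invertebrate gap junction proteins that form channels in a single membrane, did not move as a group. PANX1 had 6.54 RPKM in R/r tissue (5.68 to 7.49) and 13.6 RPKM in r/r tissue (12.3 to 15.0), and these intervals lie far apart. Its log2 ratio was 1.06 (0.81 to 1.31) from 207 and 388 reads, past 2-fold where 1.78% of all features were at least 2-fold higher in r/r tissue. The interval includes 2-fold. Among 7169 features with at least as many reads, 0.167% had a higher ratio.

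PANX2 had 2.53 RPKM in R/r tissue and 1.65 RPKM in r/r tissue, a log2 ratio of -0.61 (-1.06 to -0.18). PANX3, which is known from cartilage and bone, had 2.84 and 1.55 RPKM, a log2 ratio of -0.88 (-1.61 to -0.17). Both were thus lower in r/r tissue by more than counting error, as were GJA1, GJA5 and GJB7. PANX1 was the 1 gene of the 8 connexins and pannexins compared with a higher level there. In R/r tissue GJA1 had 4.36 times the RPKM of PANX1, and in r/r tissue 1.48 times, a log2 difference of -1.56 (-1.87 to -1.26).

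**Figure D3:**
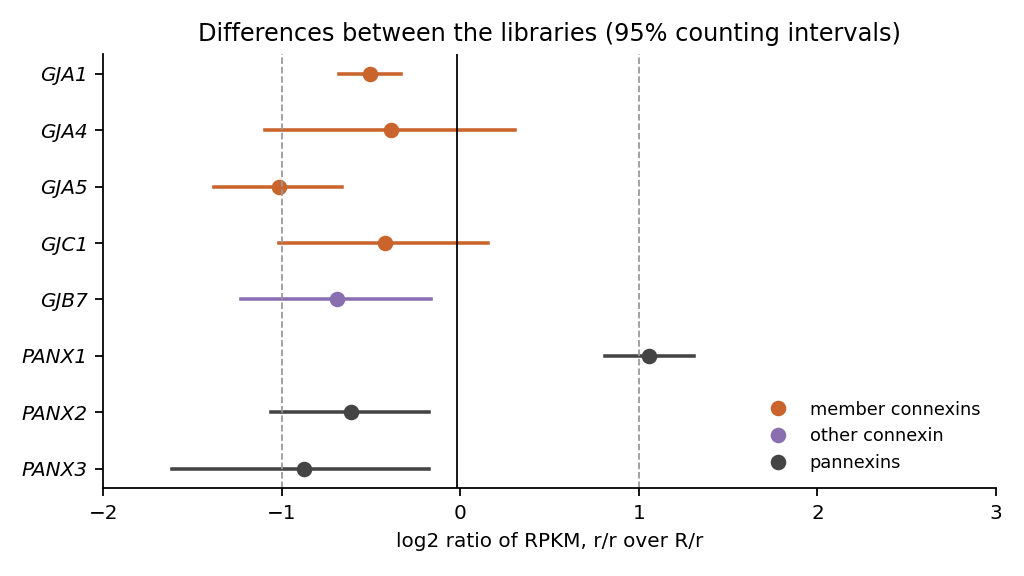
Log2 ratio of RPKM, r/r over R/r, with exact 95% counting intervals, for the 4 member connexins compared, GJB7 and the 3 pannexins; the solid line is the median of all features (-0.02) and dashed lines mark 2-fold. The intervals of GJA4 and GJC1 cross 0, those of GJA1, GJA5, GJB7, PANX2 and PANX3 lie below it, and that of PANX1 lies above it.

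Genes whose products bind, transport or modify connexins had a median log2 ratio of -0.05. In r/r tissue 8 were lower and 6 higher, where 53.3% of all features were lower. Of 15 such genes, 14 had a row and passed the minimum, and 0 of them were 2-fold apart, against 3.99% of all features. The interval lay below 0 for 4 of them and above 0 for 3, against 14.5% and 11.2% of all features. The lowest were CAV1, the caveolar coat protein, at -0.36 (-0.52 to -0.20), and NEDD4, a ubiquitin ligase that acts on the GJA1 protein, at -0.32 (-0.67 to 0.02). The highest were CNST (consortin), a receptor for connexin transport, at 0.19 (-0.27 to 0.65), and TSG101, a sorting protein of endosomes, at 0.16 (-0.06 to 0.38). TJP1, the scaffold protein ZO-1 that binds the tail of GJA1, had 71.7 RPKM in R/r tissue and 71.5 RPKM in r/r tissue.

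Markers of the cells that could supply each connexin were set beside it. In tissue RNA, fewer cells of a type and less RNA per cell cannot be told apart. For GJA4 and GJA5, 6 of 8 endothelial markers had a row and were compared. In r/r tissue 5 of them were lower, against 53.3% of all features, and 0 were at least 2-fold apart, against 3.99%. The endothelial markers had a median log2 ratio of -0.14 and a summed level of 201 RPKM in R/r tissue and 185 RPKM in r/r tissue. VWF was lowest at -0.73, TEK highest at 0.24, and PECAM1, the most abundant in R/r tissue, had 69.1 and 59.9 RPKM. In r/r tissue KDR stood just above it, at a log2 ratio of -0.01. Scaled to the summed endothelial markers, the log2 ratio of GJA5 was -0.90 and that of GJA4 was -0.27. For GJC1, 4 of 6 markers of pericytes and smooth muscle were compared, with a median of -0.06, from NOTCH3 at -0.19 to ACTA2 at 0.12, and a summed level of 169 and 163 RPKM. RGS5, the most abundant of them, had 84.9 and 85.0 RPKM, and GJC1 scaled to this list had a log2 ratio of -0.37.

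For GJA1, bone markers moved in the same direction. All 9 had a row. In r/r tissue 8 of the 9 were lower, against 53.3% of all features, and 3 at least 2-fold lower, against 2.20%. The bone markers had a median log2 ratio of -0.68 and a summed level of 768 RPKM in R/r tissue and 505 RPKM in r/r tissue. MEPE was lowest at -3.14 and SPP1 highest at 0.27. IBSP, the most abundant, had 431 and 268 RPKM, most of that summed level. Scaled to the summed bone markers, the log2 ratio of GJA1 turned from -0.51 to 0.10, that of GJA4 from -0.39 to 0.22 and that of GJC1 from -0.42 to 0.18, while that of GJA5 was -0.41. By that scaling the ratio of 3 of the 4 members lay above 0. No intervals were computed for these scaled ratios, so a difference from 0 beyond counting error was not tested. In r/r tissue the summed markers of keratinised epithelium were also lower, at a log2 ratio of -0.70, and those of marginal cells, at -0.44. Bone stood at -0.60 and the cochlear sensory epithelium at -0.04. Scaling to the lists of keratinised epithelium, marginal cells and sensory epithelium was not done. The part of bone tissue in the level of GJA1 was not tested. Markers of fibrocytes and basal cells, the coupled cells of the lateral wall, did not share one direction. Of 5 compared, 3 were lower and 2 higher, where 53.3% of all features were lower. They lay between COCH at -0.47 and OTOR at 0.49, and OTOR had the highest level with 8061 and 11327 RPKM. COCH had 6826 RPKM in R/r tissue and 4914 RPKM in r/r tissue. OTOR and COCH, which moved in opposite directions, thus made up most of the summed level of 15953 and 17204 RPKM. Scaled to that sum, GJA1 had a log2 ratio of -0.61.

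For GJB1 and GJC3, the list of Schwann cell markers is reported only in part, so its counts, median and summed level are not given. Of the markers reported, MAG, an adhesion protein of myelin, was higher in r/r tissue, at 1.81 on the log2 scale (0.43 to 3.43), with 6 and 19 reads. MAG had 0.300 RPKM in R/r tissue and 1.06 RPKM in r/r tissue, so it passed the minimum through r/r tissue alone. EGR2, a transcription factor of myelinating Schwann cells, lay the other way at -1.66 (-3.26 to -0.30) from 21 and 6 reads, below the minimum of 1 RPKM. PRX, a protein of peripheral myelin, stood at 0.11 (-0.01 to 0.22), and CNP, an enzyme of myelinating glia, had 54.6 RPKM in R/r tissue and 50.4 RPKM in r/r tissue. For GJB5, the epithelial markers KRT5, KRT14, KRT15 and TP63 had at most 2 reads in either tissue. Of that list, DSP at -0.74, also the most abundant with 20.5 and 12.3 RPKM, and PKP1 at -0.64 were the 2 genes of 8 that were compared.

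Markers of marginal cells and of the cochlear sensory epithelium were also compared, which required a value above 0 in both tissues. Of 5 marginal cell markers compared, 4 were lower in r/r tissue, against 53.3% of all features. Their median log2 ratio was -0.31, from ATP1B2, the most abundant at 915 and 522 RPKM, at -0.81 to SLC12A2 at 0.10. Of 6 markers of the sensory epithelium, 5 were lower, against the same 53.3%, and they ranged from MYO7A at -0.70 to TECTA at 0.86. OTOG, the most abundant in R/r tissue, had 10.6 and 8.48 RPKM, with TECTA at 9.78 RPKM above it in r/r tissue. The part of these cells in the connexin levels was not tested.

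**Figure D4:**
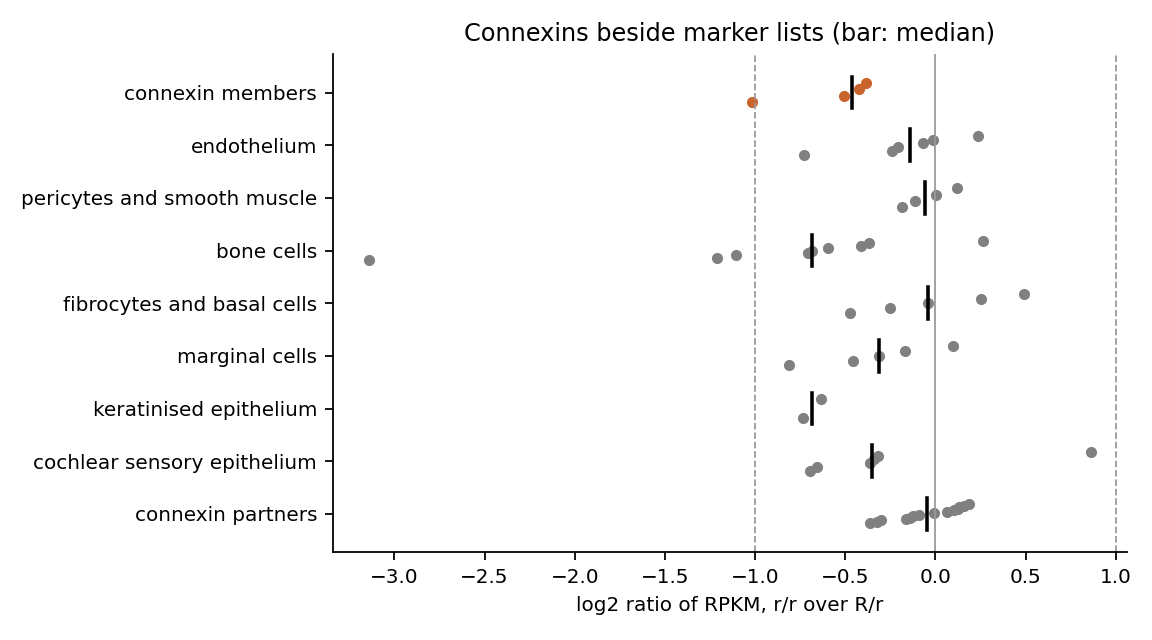
Log2 ratio of RPKM, r/r over R/r, of each gene compared (points) with the median of its list (black bar), for the member connexins, 7 marker lists and the genes that act on connexins; dashed lines mark 2-fold. The medians of keratinised epithelium (-0.69), bone markers (-0.68), member connexins (-0.46), sensory epithelium (-0.35) and marginal cells (-0.31) lie below that of endothelium (-0.14). Those of pericytes and smooth muscle (-0.06), the genes that act on connexins (-0.05) and fibrocytes and basal cells (-0.04) lie above it.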

How the data were processed

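Lateral walls with the SV were sequenced as paired reads, in 1 library per genotype. After a quality filter the authors mapped reads with TopHat (2.0.7 per the labels) onto Sscrofa10.2, and they deposited RPKM values per gene. The counting program and annotation are not given in the sources used here, nor is the use of strand. The table's 2 columns without headings hold the authors' comparisons and were not used.

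The RPKM values were used as deposited, with no pseudocount. The commonest value of low features was taken as 1 read on a feature of 107 bases. It was the shortest length among those that did best in making the others whole, for 83.5% of the 400 used. Reads were found for 100% of 20862 features above 0 (tolerance 2e-05 reads). The steps were tested on simulated data. A feature was compared where both values exceeded 0 and one reached an RPKM value of 1, and 2-fold was the study's threshold. Intervals were Clopper-Pearson for ratios and shares and exact Poisson for levels.

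The members and gene lists were chosen with earlier results of these data known. Named are the connexins and pannexins, the extremes of each other list and the most abundant gene of each marker list. TJP1, KDR, EGR2, PRX and the genes next to members were named outside this rule, after their values were seen. Some connexins, markers and neighbouring genes are not reported here and were left out of the lists, the Schwann cell list among them, after their values were seen. No gene is named for a like pattern, since 2 libraries give a single ratio. Ensembl names were added to 1794 features, RefSeq annotation of Sscrofa11.1 served only for gene order, and no sequences were used. Alternatives were pseudocounts, minimums, scalings, fold thresholds, denominators and features that share a symbol. Interval rules, Ensembl features alone, multiples of the reads and scaling to marker lists were chosen after seeing the data. The steps ran in Python 3.11.15 with scipy 1.17.1, pandas 2.3.3 and numpy 2.4.6, and figures were drawn with matplotlib 3.10.9.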

Additional observations from a re-analysis of the deposited data

How the results depend on the processing

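No paired analysis was possible because each genotype was sequenced once. The log2 ratio of each member kept its sign under the pseudocounts, the 3 scalings and summed features, and ranged from -0.54 to -0.49 for GJA1, -0.42 to -0.33 for GJA4, -1.05 to -0.76 for GJA5 and -0.46 to -0.31 for GJC1. Scaled to the summed bone markers, it was above 0 for 3 of the 4, at 0.10 for GJA1, 0.22 for GJA4 and 0.18 for GJC1, and -0.41 for GJA5. No intervals were computed for these scaled ratios. The lists of keratinised epithelium and marginal cells, also lower in sum, were not used for scaling. The 1 member at least 2-fold lower, GJA5, became 0 with a pseudocount of 0.1 or 1, under scaling by the median, with a minimum of 5 or 10, at 4-fold and with the interval wholly beyond 2-fold, and 2 members had an interval below 0. The minimums and thresholds act by construction, and GJA5 lay at the threshold. All features at least 2-fold apart numbered 651, and 317 with a pseudocount of 1, 1483 with no minimum, 178 and 87 with minimums of 5 and 10, 1771 at 1.5-fold and 130 at 4-fold. With the other connexins added to the denominator, the shares in R/r and r/r tissue were 55.6% and 57.5% for GJA1 and 12.8% and 14.4% for GJA4. As reads they were 4.38% and 5.06% for GJA4, 21.2% and 15.8% for GJA5, and 71.9% for GJA1 in r/r tissue. RPKM removes length and reads do not. The read shares also rest on the smallest whole numbers, and the multiple to the true reads can differ between genes. The pannexin median of -0.61 became 1.06 with a minimum of 5 or 10, which leaves PANX1 alone. Depth limits GJA4, GJC1, GJC3, GJB1 and GJB5.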

Other observations

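In the order of genes on the later assembly Sscrofa11.1, none of the members overlaps another annotated gene. The genes next to GJA1 and GJA5 that had a ratio stood near the median of all features, and those next to GJC1 did not. HSF2 and TBC1D32, on either side of GJA1, had log2 ratios of 0.09 and 0.02, and ACP6, next to GJA5, had 0.11. GJC1 lies between HIGD1B at -0.49 and ADAM11 at 0.36. GJC3, listed at 0 in r/r tissue, lies between TRIM4 at -0.03 and AZGP1 at -0.03.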
